A study of Mus musculus with 32 samples.

Results

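The genes described here are 45 genes of the actin cytoskeleton, chosen by gene symbol from a fixed list of actins and the proteins that build, cut, cap, bundle and anchor actin filaments. All 45 matched 1 gene ID each among the 55385 genes of the count table, and all 45 were among the 28597 genes that passed the filter on low counts. Actin monomers polymerise into filaments whose fast-growing, or barbed, end is elongated, capped or left free by other proteins. The Arp2/3 complex starts a new filament on the side of an old one and so builds branched networks, while cofilin and gelsolin cut filaments and return monomers to the pool. In microglia, the resident macrophages of the brain, this cycle drives the movement of processes, the change from a ramified to an amoeboid shape, migration and the engulfment of debris.

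RNA was measured in EYFP+ cells that were sorted by flow cytometry from the cerebral cortex of adult C57BL/6 mice. The cells came either from a cortical stab wound (injured side) or from the matching site of the opposite, non-injured hemisphere, at days 1, 4, 7 and 14 after the wound, in females and in males. All groups on both sides were heterozygous for Cx3cr1CreER and had been given tamoxifen intraperitoneally at 180 mg/kg on 5 consecutive days, starting at 8 to 10 weeks of age, so that cells in which the Cx3cr1 locus was active became labelled with EYFP before the wound. The labels name no unwounded mice, and Cx3cr1 is also active in blood monocytes and border-associated macrophages. Each of the 16 combinations of day, sex and side had 2 deposited columns, which differed by little more than counting noise and were summed. The result was 16 libraries, which form 8 pairs: each injured library stands beside its non-injured partner of the same day and sex. The labels do not say whether samples came from separate animals or pools, so p-values measure only the spread between these samples. In the fit of the injury effects, this spread is how far the female and male effects of a day differ.

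Libraries held 20863982 to 55378788 counts. Both day 14 female libraries stood apart, with 14777 genes detected on the non-injured and 14737 on the injured side, against 18732 to 40975 in the other libraries. The day 4 male non-injured library also stood apart: 25.7% of its counts came from the mitochondrial genome and its neuronal markers summed to 8781 CPM (counts scaled by edgeR's normalisation factors to a common library size), against 106.6 to 1935 CPM in the other 7 non-injured libraries. The mitochondrial share was lower on the injured side in 7 of 8 pairs, all but the day 4 female pair (1.17% and 1.43%), and its part in the members' changes was not tested. None of 10 microglial markers was at 0 in any library. Their summed level was 10320 to 69560 CPM (median 34720) on the non-injured and 10070 to 39730 CPM (median 18290) on the injured side, lower on the injured side in 7 of 8 pairs. Of these 10 markers 6 fell, 1 rose and 3 were not called.

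Across the mean of the 4 days, 29 of the 45 actin cytoskeleton genes rose on the injured side, 1 fell and 15 were not called. The largest rises were those of Vim, Gsn and Capg, at 14.7-fold, 9.90-fold and 9.11-fold, followed by Tpm4 at 3.73-fold and Arpc3 at 3.53-fold. Fscn1 was the single gene that fell. A gene was called when edgeR's quasi-likelihood test gave an adjusted p under 0.05 over all 28597 genes. In the same comparison 7.76% of all genes tested rose and 7.96% fell, and among the 9025 genes at a mean of 10 CPM or more these shares were 20.5% and 9.49%. The members' median log2 change was 0.97, against 0.20 over those 9025 genes and -0.32 over all genes tested.

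**Figure D1:**
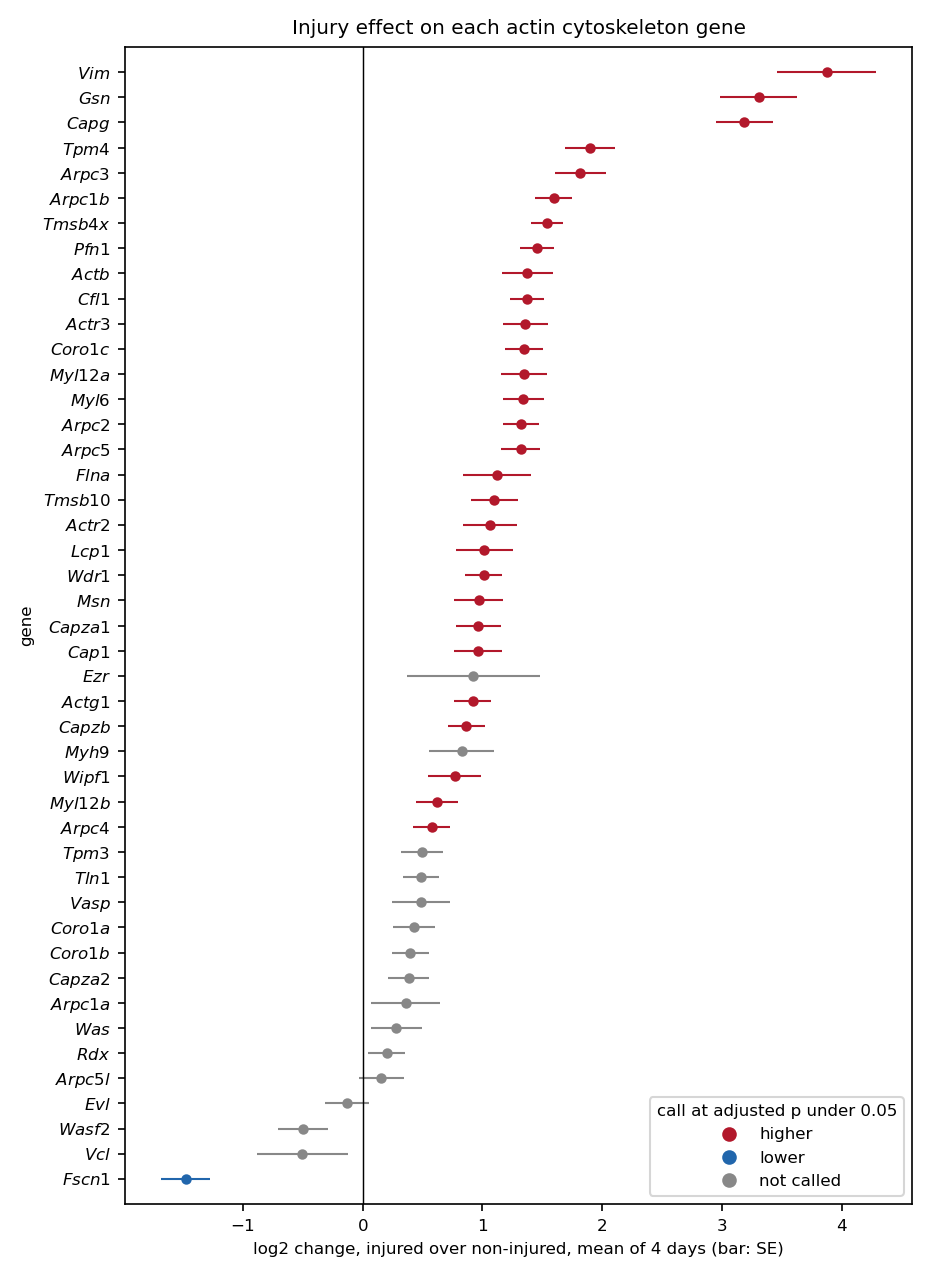
Log2 change on the injured against the non-injured side for each of the 45 genes, as the mean of the 4 days with its standard error (horizontal bar), ordered by size. Red points (29) were called higher, the blue point (Fscn1) lower and grey points (15) were not called at adjusted p under 0.05. Vim, Gsn and Capg sit apart from the other genes, above 3 on the log2 scale.

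Calls depended on the scaling more than directions did. All 29 genes called higher stayed above 0, and Fscn1 below 0, in every one of 19 alternative fits. Calls for 9 genes held in all 19: Arpc1b, Arpc2, Arpc3, Pfn1, Cfl1, Gsn, Capg, Tpm4 and Vim. Scaling to library totals alone moved the median of all genes to -0.65 and gave 21 members higher and 2 lower, while limma on log2(TPM + 1) gave 15 higher and 2 lower and a fit without pair means 11 and 0. Leaving out the day 1 female pair gave 19 higher. Of all genes called, 49.4% were higher with the main scaling and 24.6% with library totals. Without the day 4 male and day 14 female pairs, an alternative added after seeing the data, 29 members were higher and 2 lower (Fscn1 and Wasf2).

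Markers of other cells also differed between the sides, some higher and some lower on the injured side. The summed level of 13 blood monocyte markers was 20.1 to 217 CPM (median 46.6) on the non-injured side and 341 to 2286 CPM (median 566) on the injured side, higher in 8 of 8 pairs, and 12 of the 13 rose. Chil3 and F10 were each at 0 in 1 injured library, and the other monocyte markers were above 0 in every injured library. The sum of 10 border-associated macrophage markers was higher in 8 of 8 pairs, with medians of 555.5 and 1131 CPM, and 5 of the 10 rose. The T and NK cell sum was higher in 7 of 8 pairs (medians 4.57 and 17.7 CPM, 2 of 10 markers rose) and the neutrophil sum in 5 of 8 (medians 302.5 and 281.6 CPM, 5 of 10 rose). Neuronal and endothelial sums were lower on the injured side in 8 of 8 pairs. The part of these markers in the changes of the actin cytoskeleton genes was not tested. In sorted bulk samples a change in the number of cells of a type and a change in RNA per cell cannot be told apart.

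The 45 genes together took 0.882% to 12% (median 2.57%) of all counts on the non-injured side and 3.03% to 10.2% (median 4.47%) on the injured side, a larger share in 7 of 8 pairs. The exception was the day 14 female pair, at 12% and 8.17%. Actb, which encodes the cytoplasmic beta-actin, varied the most, with 0.162% to 10.4% on the non-injured and 0.795% to 7.21% on the injured side. The other 44 genes took 0.720% to 1.70% (median 1.58%) on the non-injured and 1.59% to 3.03% (median 2.44%) on the injured side. Their share was larger on the injured side in 8 of 8 pairs, though by little at day 14 in females, at 1.65% and 1.69%. These shares are given without a test.

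**Figure D2:**
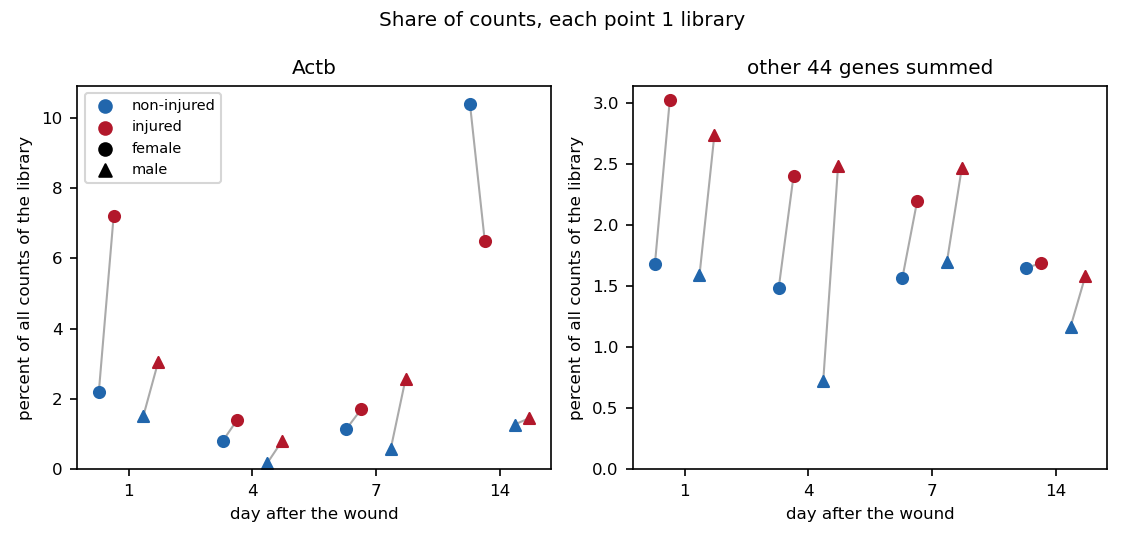
Percent of all counts of a library taken by Actb (left) and by the other 44 genes summed (right), by day after the wound. Each point is 1 library, blue for non-injured and red for injured, circles for females and triangles for males, with grey lines joining the libraries of a pair; the Actb share in the day 14 female non-injured library is 10.4%, and the share of the other 44 genes is larger on the injured side in all 8 pairs.

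By pair, the median log2 ratio of the 45 genes (injured over non-injured, CPM + 1) was highest on days 4 and 7. It was 0.96 and 0.32 at day 1 in females and males, 1.34 and 1.22 at day 4, 1.45 and 1.14 at day 7, and 0.37 and 0.65 at day 14. Ratios of at least 2-fold higher were seen for 22 and 12 members at day 1 and 27 and 27 at day 4. At day 7 they were seen for 32 and 29, and at day 14 for 6 and 10. Of the genes at 10 CPM or more, 21.5% and 9.95% reached this at day 1 and 25.1% and 20.1% at day 4. At day 7 these shares were 35.8% and 17.5%, and at day 14 they were 17.9% and 11.9%. The median of the 9025 genes at 10 CPM or more moved as well, from -0.19 in the day 1 male pair to 0.70 in the day 7 female pair, and stood at 0 and 0.02 at day 14. In 8 of 8 pairs 21 members were higher and 1, Fscn1, was lower. Of the 9025 genes, 14.1% were higher and 6.49% lower in all 8 pairs. For 44 of the 45 members the levels of the 2 sides overlapped, and Vim was the exception. No such share is given here for all genes, so this count describes the members alone.

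**Figure D3:**
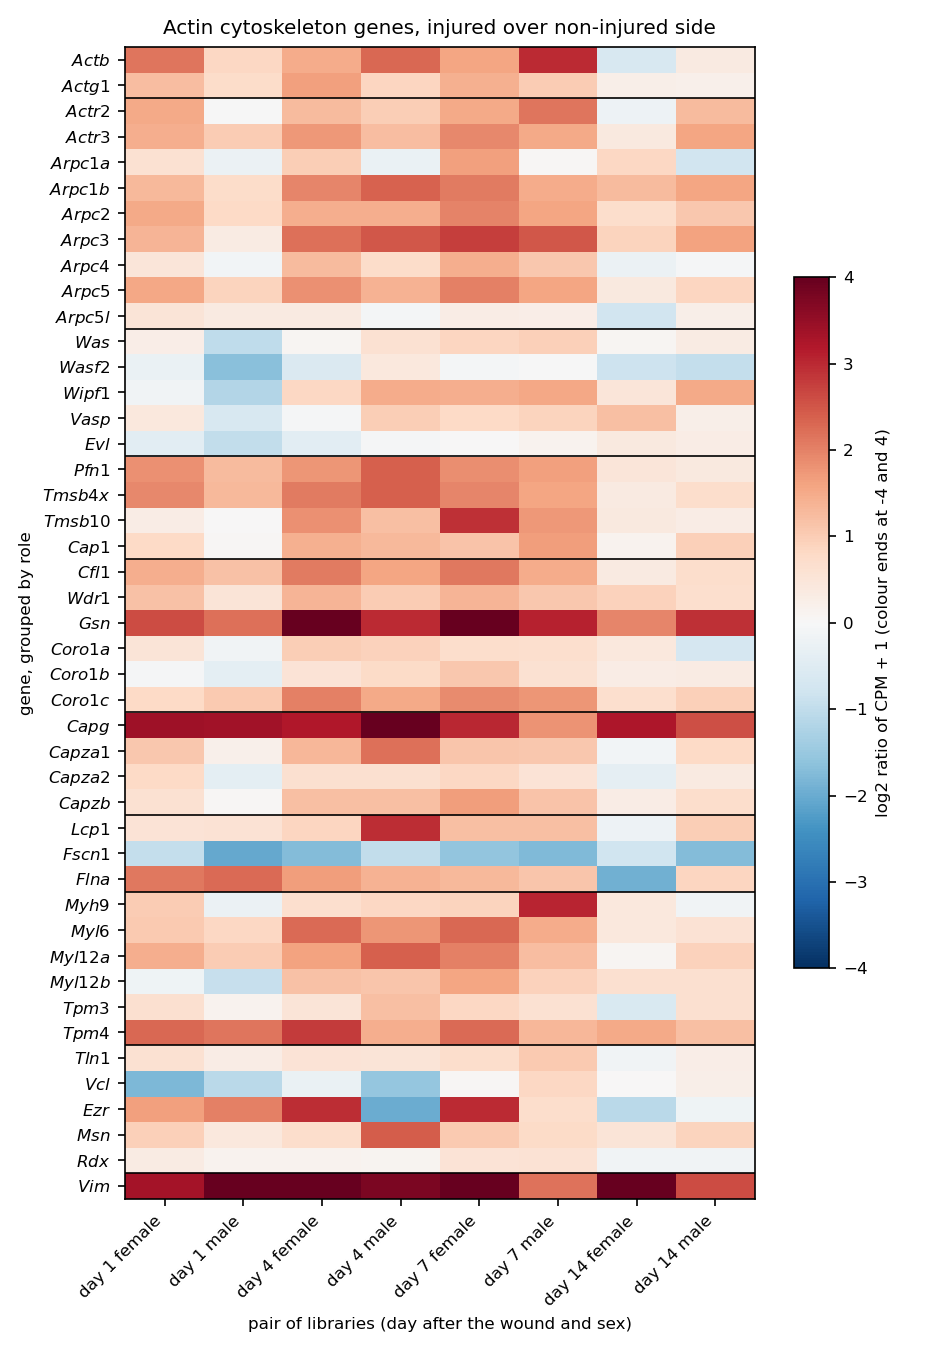
Log2 ratio of CPM + 1 on the injured over the non-injured side for each gene (rows, grouped by role, lines between groups) in each of the 8 pairs of libraries (columns), red where higher on the injured side and blue where lower. Vim, Gsn and Capg are red in all 8 pairs and Fscn1 is blue in all 8. Colours are paler in the day 14 pairs, where the medians over the 45 genes are 0.37 and 0.65. The median of the day 1 male pair is lower still, at 0.32.

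Promoters are shown for every member found to carry the CArG box, the site bound by SRF, the transcription factor that with its MRTF partners responds to the pool of actin monomers. RefSeq promoter windows on GRCm38.p6, from 250 bases before to 50 bases after a start site, were found for 42 of the 45 members, in 54 windows (Actb, Arpc5l and Coro1b had none). The box was searched on both strands and found in windows of 4 of these 42 members (9.52%), against 1.81% of 27025 genes and 1.63% of 32851 promoters. Capitals mark the box, and each stretch reads 5′ to 3′ on the strand of its gene and ends before the start site.
Actg1, chr11:120348546-120348615, minus strand, box starting 90 bases before the start site: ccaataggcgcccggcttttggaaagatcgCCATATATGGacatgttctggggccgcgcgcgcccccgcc
Myl6, chr10:128493020-128493089, minus strand, box starting 50 bases before: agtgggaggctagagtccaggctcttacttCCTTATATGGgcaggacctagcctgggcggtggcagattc
Vcl, chr14:20929148-20929210, plus strand, box starting 227 bases before: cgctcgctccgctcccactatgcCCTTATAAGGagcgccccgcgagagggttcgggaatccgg
Arpc4, chr6:113377863-113377902, plus strand, box starting 250 bases before: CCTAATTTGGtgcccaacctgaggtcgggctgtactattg
Of these 4 genes Actg1, Myl6 and Arpc4 rose (log2 0.92, 1.34 and 0.58) and Vcl was not called (-0.50). A match of letters is a description and does not show binding. Of the transcription factor genes themselves, Srf (log2 0.29, mean 3.70 CPM on the non-injured side), Mrtfa (-0.37) and Mrtfb (-0.56) were not called.

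Both cytoplasmic actins rose. Actb (chromosome 5, 142903115 to 142906754, minus strand, GRCm38 by GENCODE M21) was at 1927 to 142100 CPM (median 8087) on the non-injured and 9524 to 91070 CPM (median 22020) on the injured side. It was higher on the injured side in 7 of 8 pairs and lower in the day 14 female pair, whose non-injured library was 7.11 times the next highest non-injured one. Its log2 change was 1.38 ± 0.21 (SE), with an edgeR adjusted p of 0.0031, and the call was lost with DESeq2 (adjusted p = 0.469), with limma on TPM (0.252) and without pair means (0.232). Actg1, which encodes gamma-actin, was at 352.7 to 649.6 CPM (median 545) on the non-injured and 452.7 to 2015 CPM (median 1064) on the injured side, with higher values on the injured side in every pair. Its log2 change was 0.92 ± 0.15 (adjusted p = 0.0043). The 2 actins are nearly alike as proteins, but at the RNA level just 4.92% of the 31-base stretches of Actb transcripts also occur in those of Actg1. More of their sequence recurs elsewhere: 47.2% of the stretches of Actg1 and 31% of those of Actb are shared with other annotated genes, so reads of both genes could be divided among them.

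Of 9 Arp2/3 complex genes 7 rose and 2 were not called, with a median log2 change of 1.32. Actr2, one of the actin-related subunits at the core of the complex, was at 113 to 5142 CPM (median 223.5) on the non-injured and 247 to 4470 CPM (median 466.5) on the injured side. The day 14 female libraries held the highest Actr2 value of each side, the non-injured one 17.9 times the next highest. Actr2 rose by 1.06 ± 0.23 on the log2 scale (adjusted p = 0.013), higher in 6 of 8 pairs. Arpc3, a small subunit that joins the core to the rest, was at 11.1 to 37.1 CPM (median 21.5) on the non-injured and 30.5 to 211 CPM (median 74.0) on the injured side. It had the largest change of the complex, 1.82 ± 0.21 (adjusted p = 0.000885), and was higher in 8 of 8 pairs. Arpc1b (1.60) is a propeller-shaped subunit abundant in haematopoietic cells, Actr3 (1.36) is the second actin-related subunit, Arpc2 (1.32) and Arpc4 (0.58) form the scaffold, and Arpc5 (1.32) is a small peripheral subunit. All 5 rose, Arpc4 least firmly, since its call was lost in 11 of the 19 alternatives. Arpc1a (log2 0.36 ± 0.29, adjusted p = 0.486) and Arpc5l (0.16 ± 0.19, adjusted p = 0.695), the alternative forms of the Arpc1 and Arpc5 subunits, were not called in any alternative. Shared sequence touched Actr3 (58% of its 31-base stretches occur in other genes) and Arpc1b (44%, most of it with its neighbour Pdap1).

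The factors that switch the Arp2/3 complex on or elongate filaments were mostly not called: 1 of 5 rose and 4 did not pass, with a median log2 change of 0.28. Wasf2, a subunit of the WAVE complex that activates Arp2/3 at the leading edge, was the most abundant of them. It was at 38.2 to 379 CPM (median 201) on the non-injured and 37.7 to 248 CPM (median 117) on the injured side, lower on the injured side in 7 of 8 pairs. Its log2 change of -0.50 ± 0.21 was not called (adjusted p = 0.152) but passed the threshold in 6 alternatives, among them DESeq2 (-0.64, adjusted p = 0.0251). Wipf1, a partner that stabilises the Wiskott-Aldrich syndrome protein, was at 13.8 to 61.3 CPM (median 26.5) on the non-injured and 18.7 to 96.5 CPM (median 52.2) on the injured side. It rose by 0.77 ± 0.23 (adjusted p = 0.048), a call lost in 13 of 19 alternatives. Not called were Was, the gene of that protein (0.28 ± 0.22), Vasp (0.48 ± 0.24) and Evl (-0.13 ± 0.18), the last 2 encoding Ena/VASP proteins that elongate filaments at their barbed end. As a raw share of counts, the 5 genes were lower on the injured side in 7 of 8 pairs (medians 0.0424% and 0.0301%). That share is weighted to Wasf2, the most abundant, whereas the median counts each gene once.

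All 4 genes of monomer-binding proteins rose, with a median of 1.28. Tmsb4x, which encodes thymosin beta-4, the main buffer of free actin monomers, was at 1375 to 3090 CPM (median 1643) on the non-injured and 2383 to 14090 CPM (median 6013) on the injured side. Each injured library lay above its partner, by the most in the day 4 male pair (2670 and 14090 CPM) and by the least in the day 14 female pair (2582 and 3341 CPM). Its log2 change was 1.54 ± 0.13 (adjusted p = 0.000245), and the call was lost with limma on TPM alone (adjusted p = 0.0783). Pfn1 (1.46 ± 0.14), the gene of profilin, which feeds monomers to growing ends, had medians of 586.8 CPM on the non-injured and 1816 CPM on the injured side, with the injured library above its partner in every pair. Tmsb10 (1.10), the gene of the related thymosin beta-10, and Cap1 (0.96), whose protein recycles monomers released by cofilin, rose too. By deposited TPM, which is scaled for length, Tmsb4x had the second highest median of the 45 genes on the injured side, at 12110 TPM, after Actb at 20420 TPM.

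Of 6 genes of filament cutting and disassembly 4 rose and 2 were not called. Cfl1, the gene of cofilin, which severs ageing filaments, was at 489 to 1125 CPM (median 754) on the non-injured and 794 to 3160 CPM (median 2294) on the injured side. It was higher in 8 of 8 pairs and rose by 1.37 ± 0.14 (adjusted p = 0.00059). Gsn, which encodes the calcium-activated severing and capping protein gelsolin, lay at 2.79 to 34.8 CPM (median 13.9) on the non-injured and 13.7 to 340 CPM (median 147) on the injured side. The lowest Gsn value of each side was in a day 14 female library (2.79 and 13.7 CPM), and within the 8 pairs the log2 ratio ran from 1.95 to 5.59. Gsn rose by 3.31 ± 0.32 (adjusted p = 0.000417), or 9.90-fold, and no 31-base stretch of its transcripts occurs in another gene. Wdr1 (1.01), a cofactor of cofilin, and Coro1c (1.35), a coronin, also rose. The coronins Coro1a (0.43 ± 0.17, adjusted p = 0.137), the form of blood cells, and Coro1b (0.40 ± 0.15, adjusted p = 0.119) were not called.

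Of 4 capping genes 3 rose. Capg, whose protein caps barbed ends in macrophages without cutting the filament, was at 19.6 to 281 CPM (median 45.2) on the non-injured and 188.5 to 1514 CPM (median 484) on the injured side. The day 7 male non-injured library (281 CPM) was the one library of its side above the lowest injured value. Capg rose by 3.19 ± 0.24 (adjusted p = 0.000142), the smallest adjusted p of the 45 genes, and its pair ratios ran from 1.80 to 4.69. Capping protein, a heterodimer of an alpha and a beta chain, blocks the same end. Its most abundant gene by CPM, Capza2, was at 268 to 2828 CPM (median 634.5) on the non-injured and 421 to 2188 CPM (median 1118) on the injured side, with the highest value of both sides in the day 14 female libraries, and was not called (0.38 ± 0.17, adjusted p = 0.178). Capza1 (0.97) and the beta chain gene Capzb (0.86) rose, but 83.2% of the 31-base stretches of Capza1 are shared with other genes, most with Gm3608, so its counts are uncertain.

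The 3 bundling and crosslinking genes went in different directions, with 2 higher and 1 lower. Fscn1, which encodes fascin, the protein that packs filaments into the tight bundles of filopodia, was at 21.4 to 593 CPM (median 249) on the non-injured and 8.02 to 179 CPM (median 98.2) on the injured side. Levels varied widely between pairs, with the day 7 male and day 14 female libraries lowest on both sides, yet the injured library was the lower one in 8 of 8 pairs. Fscn1 fell by 1.48 ± 0.21 on the log2 scale (adjusted p = 0.00195), a call lost without pair means alone (adjusted p = 0.14). Lcp1, the gene of plastin-2, which bundles filaments in leukocytes, was at 70.5 to 1417 CPM (median 804) on the non-injured and 550 to 2560 CPM (median 1455) on the injured side. The lowest Lcp1 value was that of the day 4 male non-injured library, and the gene was higher on the injured side in 7 of 8 pairs. Flna, which encodes the crosslinker filamin A, was at 32.8 to 171 CPM (median 70.7) on the non-injured and 9.38 to 748 CPM (median 169) on the injured side, with its lowest value in the day 14 female injured library. Lcp1 (1.01 ± 0.24, adjusted p = 0.0194) and Flna (1.12 ± 0.28, adjusted p = 0.0259) rose, and each call was lost in 8 of the 19 alternatives.

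Of 6 genes of non-muscle myosin II and tropomyosin 4 rose. Tpm4, a tropomyosin that coats filaments and selects which proteins bind them, was at 39.0 to 131 CPM (median 55.8) on the non-injured and 91.2 to 442 CPM (median 254) on the injured side. It was higher in 8 of 8 pairs and rose by 1.90 ± 0.21 (adjusted p = 0.000743). Tpm3, the most abundant gene of the group by CPM, was at 179 to 2968 CPM (median 713) on the non-injured and 410 to 1941 CPM (median 1143) on the injured side, with the highest value of each side at day 14 in females. Tpm3 was not called (0.50 ± 0.18, adjusted p = 0.0954), and 46.0% of its 31-base stretches are shared, most with Tpm3-rs7. The light chains Myl6 (1.34), Myl12a (1.35) and Myl12b (0.62) rose, the last with a call lost in 15 of 19 alternatives, while Myh9, the heavy chain that pulls on filaments, was not called (0.83 ± 0.27, adjusted p = 0.0726).

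Of the 5 linkers of filaments to membrane and adhesion sites 1 rose. Msn, the gene of moesin, the main linker of this family in leukocytes, was at 85.7 to 1040 CPM (median 490) on the non-injured and 415 to 1731 CPM (median 728) on the injured side. It was higher in 8 of 8 pairs and rose by 0.97 ± 0.20 (adjusted p = 0.0123), a call lost in 8 of 19 alternatives. Its relatives Ezr (0.92 ± 0.55) and Rdx (0.20 ± 0.16) were not called. For Ezr the day 4 male non-injured library held 194 CPM, against a median of 9.17 CPM on that side. Without that pair the log2 change of Ezr was 1.58, and the part of the single library was not tested. Ezr was higher on the injured side in 5 of 8 pairs and lower in 3, among them the day 14 pairs (-1.07 and -0.17). Tln1, the gene of talin, which ties integrins to actin, was not called (0.49 ± 0.15, adjusted p = 0.0622). Vcl, the gene of vinculin, which strengthens that tie, was barely detected, with medians of 5.38 and 2.72 CPM and 0 counts in both day 14 female libraries (a count of 0 allows up to 0.123 and 0.118 CPM, at 3 counts a library), and was not called (-0.50 ± 0.38).

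Vim encodes vimentin, an intermediate filament protein that stands on this list beside the actin genes. It was at 3.99 to 57.3 CPM (median 8.69) on the non-injured and 64.7 to 282 CPM (median 172) on the injured side. Every injured library lay above every non-injured one. Vim had the largest change of the 45 genes, 3.87 ± 0.41 (adjusted p = 0.000628), with pair ratios from 2.17 to 5.44. Vimentin is also made by blood leukocytes, macrophages, astrocytes, endothelial and mural cells. The blood monocyte and border-associated macrophage sums were higher on the injured side in 8 of 8 pairs and the T and NK cell sum in 7. The astrocyte marker sum was higher on the injured side in 3 of 8 pairs, the endothelial sum in 0 and the mural and fibroblast sum in 1. Their part in the change of Vim was not tested.

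**Figure D4:**
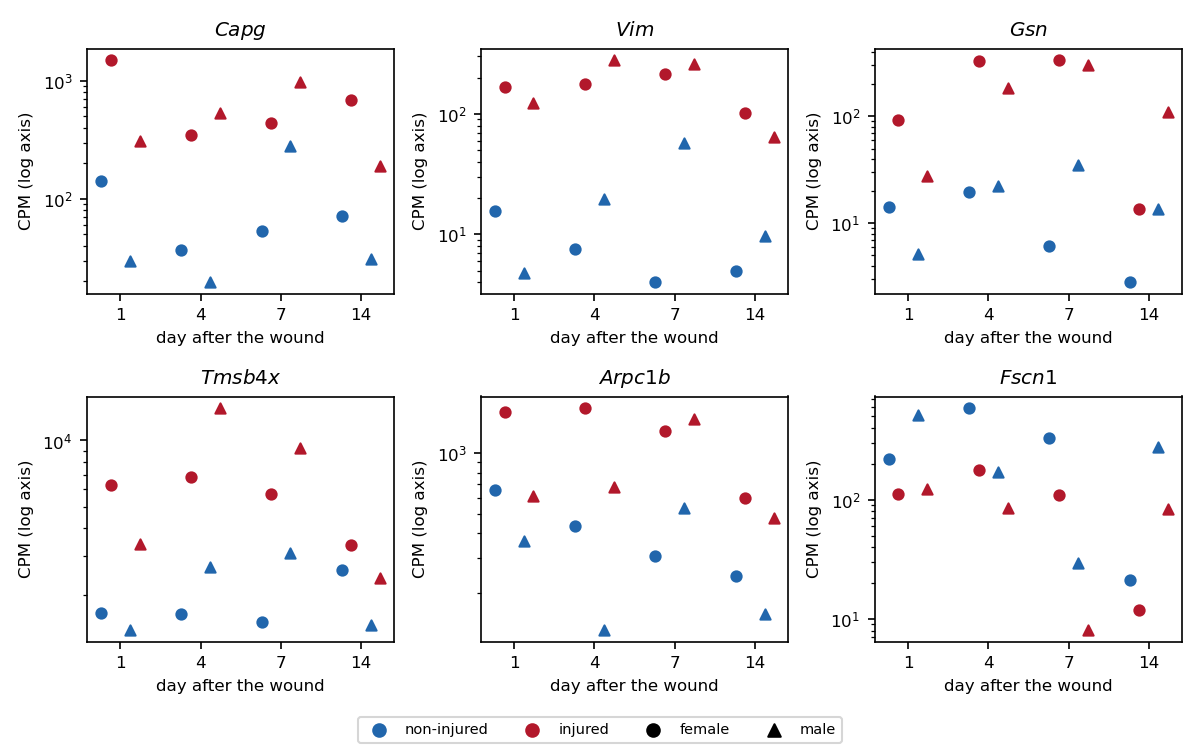
CPM of 6 of the genes in each library (log axis) by day after the wound, blue for non-injured and red for injured, circles for females and triangles for males. Within each pair of day and sex Capg, Vim, Gsn, Tmsb4x and Arpc1b are higher and Fscn1 is lower on the injured side, and the gap for Tmsb4x is smallest in the day 14 female pair.

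Single days rest on 2 pairs each. At day 1, 4 members rose (Capg 3.40, Tpm4 2.24, Tmsb4x 1.61 and Pfn1 1.54 on the log2 scale) and 0 fell, against 0.472% and 0.580% of all genes. At day 4, 14 rose and 0 fell, against 1.53% and 0.521% of all genes. Beside the 4 genes of day 1 these were Vim (4.19), Gsn (3.57), Arpc3 (2.37), Arpc1b (2.16), Myl6 (2.02), Myl12a (2.01), Cfl1 (1.83), Coro1c (1.79), Arpc5 (1.62) and Arpc2 (1.45). At day 7, 5 rose (Gsn 4.38, Arpc3 2.72, Cfl1 1.80, Tmsb4x 1.76 and Pfn1 1.75) and 0 fell, against 0.318% and 0.0559% of all genes. At day 14, 0 members were called by edgeR in either direction, against 0.0455% of genes higher and 0.014% lower. At an unadjusted p under 0.05, 10 members were higher and 1 lower at day 14, and DESeq2 called 6 higher and 1 lower. The closest to the threshold at day 14 was Capg (2.94 ± 0.47, adjusted p = 0.0697). For the counts of 0 lower at days 1, 4 and 7, 3, 1 and 1 members were lower at an unadjusted p under 0.05 and DESeq2 called 1 lower at each day. DESeq2 called more members higher at these days, 17 at day 1, 19 at day 4 and 17 at day 7.

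These daily counts moved widely with single pairs. The day 4 count of 14 fell to 0 without either day 1 pair or the day 4 male pair, to 7 without the day 14 female or either day 7 pair, and to 9 without the day 4 female pair. The day 1 count became 0 when a day 1 or day 7 pair of either sex was left out and 2 when a day 14 pair was; dropping the female or male pair of day 4 raised it to 10 and 8. The day 7 count became 0 when any day 1, 7 or 14 pair was left out, and 13 and 19 when the female or male pair of day 4 was. At day 14 dropping the same pairs of day 4 gave 2 and 1.

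No difference between days was called for any member. The test of the 3 differences between the 4 day effects called 0% of all genes and 0 members (smallest adjusted p 0.675), with 11 members at an unadjusted p under 0.05 and 0 called by DESeq2. For Tmsb4x the day effects were 1.61, 2.23, 1.76 and 0.54 (unadjusted p = 0.00741 in edgeR's test of the difference). The direct contrast of day 14 minus day 1 also called 0% of genes and 0 members (6 at an unadjusted p under 0.05, 0 by DESeq2). Its largest differences at an unadjusted p under 0.05 were those of Flna, -2.70 ± 0.81, Wipf1, 1.705 ± 0.64, and Actb, -1.63 ± 0.60. Of these 6 members, 2 had a difference above 0 and 4 below 0. The sex difference of the injury effect, male minus female, called 0% of genes and 0 members. Just Arpc1a had an unadjusted p under 0.05 (-1.34 ± 0.36, adjusted p = 0.403), and DESeq2 called 0.

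The authors' deposited tables, which compare the sides at each day with the sexes together, give Capg log2 values of 3.35, 3.76, 1.77 and 3.05 at days 1, 4, 7 and 14 with adjusted p of 8.7e-07, 1.36e-08, 0.0214 and 1.2e-05. For Tmsb4x the authors' deposited tables give 1.68, 2.06, 1.35 and 0.52, with an adjusted p of 0.311 at day 14. For Fscn1 they give -1.56, -1.84, -2.18 and -1.67, with adjusted p from 0.068 to 0.262, so that no day passes 0.05 in the authors' deposited tables. The edgeR tests of Fscn1 at single days did not pass either (adjusted p = 0.125, 0.134, 0.0999 and 0.209).

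Related genes of 1 family often moved by different amounts. Both genes are read in the same library. The scaling thus cancels from the difference of their log2 ratios, apart from the 1 CPM added to each value, which weighs more at low levels. This difference was tested over the 8 pairs for 13 comparisons with an exact two-sided sign-flip permutation test, added after seeing the data. In 7 comparisons the first gene had the larger ratio in 8 of 8 pairs, each with an exact permutation p of 0.0078, the smallest this test can give (adjusted p = 0.0145). Arpc1b exceeded Arpc1a by 1.24 ± 0.83 (SD, n = 8 pairs), Arpc5 exceeded Arpc5l by 1.16 ± 0.42 and Tpm4 exceeded Tpm3 by 1.38 ± 0.77. In TPM the ratio of Tpm4 to Tpm3 ran from 0.0123 to 0.376 on the non-injured and from 0.0605 to 0.449 on the injured side, so Tpm3 remained the higher of both in every library. Coro1c exceeded Coro1a by 0.91 ± 0.48 and Coro1b by 0.94 ± 0.39. Msn exceeded Rdx by 0.77 ± 0.67 and Capza1 exceeded Capza2 by 0.58 ± 0.43, the latter with the shared sequence of Capza1 given above.

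The other 6 comparisons did not pass. Actb minus Actg1 was 0.46 ± 0.91 (exact permutation p = 0.172) and Tmsb4x minus Tmsb10 was 0.45 ± 0.87 (exact permutation p = 0.156), with both signs among the pairs. Myl12a minus Myl12b was 0.72 ± 0.83 (exact permutation p = 0.0469, adjusted 0.0762) and passed without the day 14 female pair (0.91, adjusted p = 0.0254, exact permutation). Myl12a and Myl12b share sequence with each other and with a second gene ID named Myl12b, so their reads may be divided among them. Ezr minus Msn (-0.08 ± 2.23), Ezr minus Rdx (0.69 ± 1.71) and Coro1a minus Coro1b (0.03 ± 0.50) had wide spreads relative to their means.

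**Figure D5:**
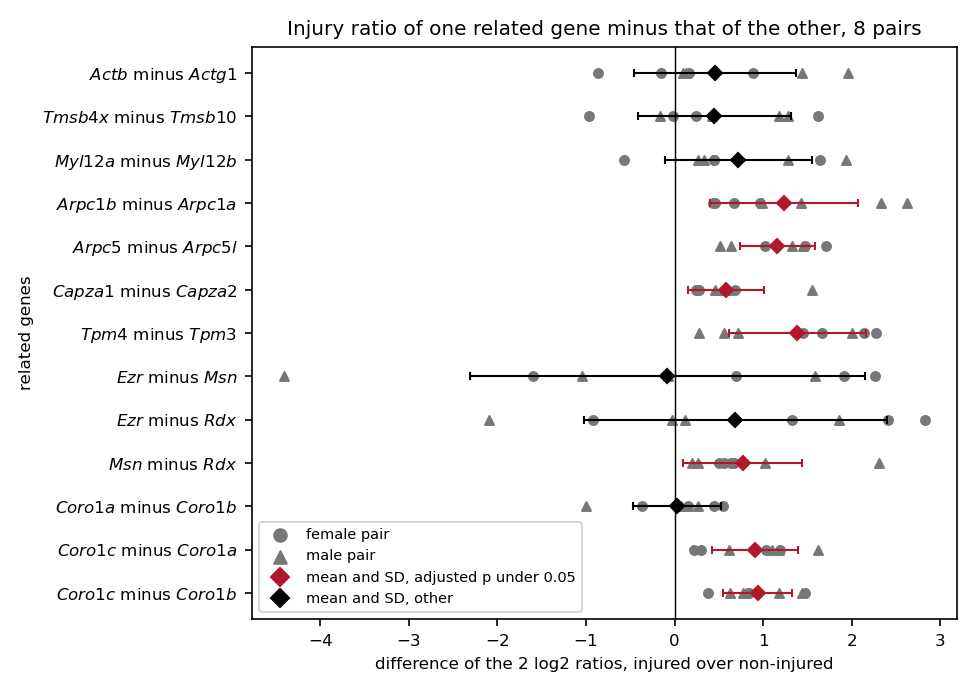
Difference between the log2 injury ratios of 2 related genes (first minus second) in each of the 8 pairs (grey, circles for females and triangles for males), with the mean and SD (diamond and bar, red where the adjusted exact permutation p is under 0.05). In the 7 red comparisons, among them Arpc1b minus Arpc1a and Tpm4 minus Tpm3, all 8 pairs lie above 0, while Ezr minus Msn runs from -4.41 to 2.26.

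Other genes of the pathway were read from lists of the WAVE complex and formins, further actin-binding proteins, myosins, muscle actins and the MRTF and SRF factors. Their counts stand against the same 7.76% of all genes that rose and 7.96% that fell. Most listed genes were at a mean of 10 CPM or more, where 20.5% of genes rose and 9.49% fell. Of 17 genes of the WAVE complex and formins 1 rose and 1 fell, shares below all of these. The riser was Fmn1, a formin, at 1.45 ± 0.22. Of 33 further actin-binding genes 7 rose, a share near that of all genes at 10 CPM or more, and 2 fell. Among those at a mean of 10 CPM or more the range was from Tagln2 (2.09 ± 0.20), a calponin-family protein, to Enah (-1.98 ± 0.34), the third Ena/VASP gene, which was at a mean of 18.5 CPM on the non-injured and 4.91 CPM on the injured side. Of 8 myosins 3 rose and 0 fell, led by Myo1e (2.65 ± 0.24), a single-headed myosin that links membrane and actin. Of 4 muscle actins 1 fell, at a mean under 10 CPM, and of the 3 MRTF and SRF genes none was called.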

How the data were processed

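Libraries were made from RNA of sorted cells with SMART-Seq v4 and Nextera XT, per the labels' protocols. The authors deposited expected counts and TPM per gene and, for each day, tables of log2 fold changes and p-values. Salmon 1.0.0 and DESeq2 1.26.0 are named in the submitters' processing notes. The sources used here do not give the genome build, annotation, settings or strandedness. Versioned IDs of 42 of the 45 genes are in GENCODE M21 (GRCm38), which gave coordinates and transcript sequences.

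The 2 columns of each combination of day, sex and side were compared (median chi-square per gene 0.475 to 0.639, against 0.455 for counting noise alone and 31.5 to 112.7 between sexes), summed and rounded. Deviations of same-numbered columns correlated by -0.0347 to 0.0587 between the sides. Since these deviations were little more than counting noise, the correlations cannot show whether the replicate number pairs samples.

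Counts of the 16 libraries were fitted with edgeR 4.0.16 (R 4.3.3): TMM factors (0.689 to 1.55), filterByExpr with a minimum count of 10, 8 pair means and 4 day effects (4 residual and 5.33 prior degrees of freedom), quasi-likelihood F tests and Benjamini-Hochberg adjustment over 28597 genes. A sex-by-injury term was added for the sex difference (3 residual degrees of freedom). Errors of log2 changes are SEs from that fit. CPM use TMM-scaled library sizes, and pair ratios use a pseudocount of 1 CPM. Alternatives used DESeq2 1.42.0, limma 3.58.1, other scalings, the 32 columns and left-out pairs. The edgeR fit was also run on simulated counts with the same dispersion for every gene, a simpler setting than these libraries. That run is not used here as support for any call.

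Members and lists were chosen with earlier results of these data known. All members are accounted for. In each role group values are given for the most abundant gene by CPM and the largest called rise and fall, and for other lists the largest called rise and fall at 10 CPM or more. Sequence sharing is the share of 31-base stretches of a gene's transcripts found, on either strand, in another gene's. A further pair of pathway lists is not reported here.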

Additional observations from a re-analysis of the deposited data

Results flagged for a closer look

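In 49 groups of 8 values, 7 held 1 value far from the other 7 by Dixon's test, which chance alone does in about 1 in 20 groups. The log2 ratio of Flna was -1.92 in the day 14 female pair, against 0.84 to 2.27 in the other pairs, and that of Arpc5l was -0.76 in the same pair, against -0.07 to 0.52. In the day 4 male pair the ratio of Lcp1 was 2.95, against -0.20 to 1.20, and that of Msn was 2.43, against 0.41 to 1.06. Myh9 stood at 3.06 in the day 7 male pair, against -0.23 to 1.01, and Was at -1.01 in the day 1 male pair, against 0.06 to 0.95. The 45 genes took 12% of counts in the day 14 female non-injured library, against 0.882% to 3.87% in the other non-injured libraries. Of these 7 values 5 lie in the day 14 female or day 4 male pairs.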

How the results depend on the processing

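Directions held more widely than calls: all 29 genes called higher and Fscn1 kept their sign in 19 alternatives, and 9 of these 30 calls held in every one. Of the 15 genes not called, 4 (Arpc1a, Arpc5l, Was and Rdx) were called in none. For 11 of the 15, these 4 among them, the sign differed between alternatives. For the mean of the 4 days (29 higher, 1 lower), limma on log2 TPM gave 15 and 2, no pair means 11 and 0, library totals 21 and 2, and DESeq2 28 and 2. Leaving out 1 pair or 1 column in turn gave 19 to 28 higher. With the 32 columns taken as separate samples, 37 were higher and 4 lower, also with the replicate block. That fit treats near copies as replicates: it gave 26 higher and 8 lower at day 1, 35 and 3 at day 4, 39 and 1 at day 7, 25 and 2 at day 14, 38 differing between days and 21 between days 14 and 1, and with the replicate block 26 and 8, 35 and 3, 39 and 1, 24 and 2, 36 and 20. Whether the replicate number pairs samples could not be told from the columns. Day 1 (4 higher, 0 lower) gave 17 and 1 with DESeq2, 7 higher with median-ratio factors, 2 without the filter, 0 without pair means and 0 to 10 when 1 pair or column was left out. Day 4 (14, 0) gave 1 lower with DESeq2, 5 higher with limma on TPM, 5 without the filter, 0 without pair means and 0 to 13 with 1 pair or column left out. Day 7 (5, 0) gave 17 and 1 with DESeq2, 1 and 1 with library totals and with limma, 1 higher with median-ratio factors and without the filter, 0 without pair means, and 0 to 19 higher and 0 to 1 lower with 1 pair or column left out. Day 14 (0, 0) gave 6 and 1 with DESeq2, 1 higher with limma on TPM and 0 to 2 with 1 pair left out. Without the day 4 male and day 14 female pairs (chosen after seeing the data) the counts were 29 higher and 2 lower for the mean, 14 and 1 at day 1, 0 at day 4 and 17 and 1 at day 7. The causes of these shifts were not tested. Of the paralogue comparisons, Myl12a minus Myl12b alone changed its call. The mean share of counts was 3.70% and 5.41% and moved to at most 3.90% and 5.61% in the alternatives.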
